A study of Mus musculus with 12 samples.

Results

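The Mir132/Mir212 locus on mouse chromosome 11 comprises 3 annotated genes, the non-coding host transcript 1700016P03Rik and the microRNA (miRNA) genes Mir212 and Mir132. These 3 genes, of 41091 gene identifiers counted, were followed across RNA-seq libraries from hippocampal slices at 1 hr and 3 hr after chemical long-term potentiation (LTP), a lasting strengthening of synapses induced here by drugs and ions. The locus was chosen on the rise of Mir132 in the 1 hr comparison of LTP with control slices. The 1 hr LTP values of its genes are therefore a description and carry no test.

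All slices came from wild type C57BL/6 male mice aged 2 to 3 months. They were hippocampal mini-slices with the dentate gyrus trimmed away, rested for 2 hr before treatment. LTP slices received 50 µM forskolin, which raises cAMP, for 5 min and then forskolin with 30 mM KCl and 10 mM calcium for 5 min, and control slices received 0.2% DMSO for 10 min. Each treatment was sampled at both times, which gave 4 groups of 3 libraries. Within a time point, LTP and control slices of the same replicate number came from the same animal.

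The 12 libraries held 37118382 to 50815001 counts each. Arc is the immediate early gene with which the study checked induction before sequencing. Libraries were made only from samples in which Arc rose by qPCR, so its rise here is no separate check. Its log2 fold changes after LTP were 1.99 (1 hr, SE 0.08) and 1.30 (3 hr, SE 0.06). Library 1 hr control replicate 2 was set aside by the study as an outlier of its clustering. It was left out of the fits here, and for the 3 genes of the locus the fitted values that involve the 1 hr controls are also given with it. Fitted values of other genes are given without it only, whereas ranges of summed marker levels hold all 3 libraries of a group. The mean Arc level in the 1 hr controls was 141 CPM without it and 168 CPM with it. The slices are mixed tissue, so that fewer cells of a type and less RNA per cell cannot be told apart. All 29 markers of 9 cell types, dentate granule cells included, were detected in every group, and the summed level of 3 dentate markers was between 112 and 213 CPM, the count relative to the scaled library total, across the 12 libraries.

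miRNAs are cut from longer primary transcripts, first by Drosha in the nucleus and then by Dicer in the cytoplasm, and the mature strand guides an Argonaute protein to matching sites in mRNAs. The Mir132/Mir212 cluster is a known target of the transcription factor CREB in neurons, and its products are known regulators of dendrite growth and of synaptic plasticity. Total RNA libraries of long fragments do not capture mature miRNAs, so that counts over Mir132 and Mir212 here come from precursor or primary RNA.

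The mature strands show how alike the products of the cluster are. They are printed 5′ to 3′ from RefSeq (GRCm38.p6) with the seed, bases 2 to 8, in capitals, since the seed largely sets which mRNAs are bound.
miR-132-3p: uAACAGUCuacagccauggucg
miR-212-3p: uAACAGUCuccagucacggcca
miR-132-5p: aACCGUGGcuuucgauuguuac
miR-212-5p: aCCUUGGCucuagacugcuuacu
The 3p strands shared the seed AACAGUC, and no other of the 1738 mature miRNAs in the RefSeq table had it. They were identical at 17 of 22 positions. Counted from 1 at the 5′ end, with the miR-132-3p base first, they differed by A10C, C14U, U17C, U20C and G22A, all outside the seed. The 5p strands had seeds that no other entry of the table held.

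In the annotation (GRCm38, GENCODE M21), 1700016P03Rik (ENSMUSG00000085609.1) ran on the plus strand of chromosome 11 from 75172560 to 75177633 in 3 exons. Mir212 (ENSMUSG00000065590.1; 75173388 to 75173478) and Mir132 (ENSMUSG00000065537.2, counted as ENSMUSG00000065537.1; 75173682 to 75173747) both lay inside its 1380 nt first intron, on the same strand and 203 nt apart. Neither hairpin overlapped an exon of another gene. The third exon of the host transcript, 641 nt or 74.3% of its exonic length, lay within the last exon of Ovca2 on the opposite strand. The kit kept strand, but whether counting used it is not given in the sources used here, so reads of the host transcript and Ovca2 may not be told apart over that exon.

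**Figure D1:**
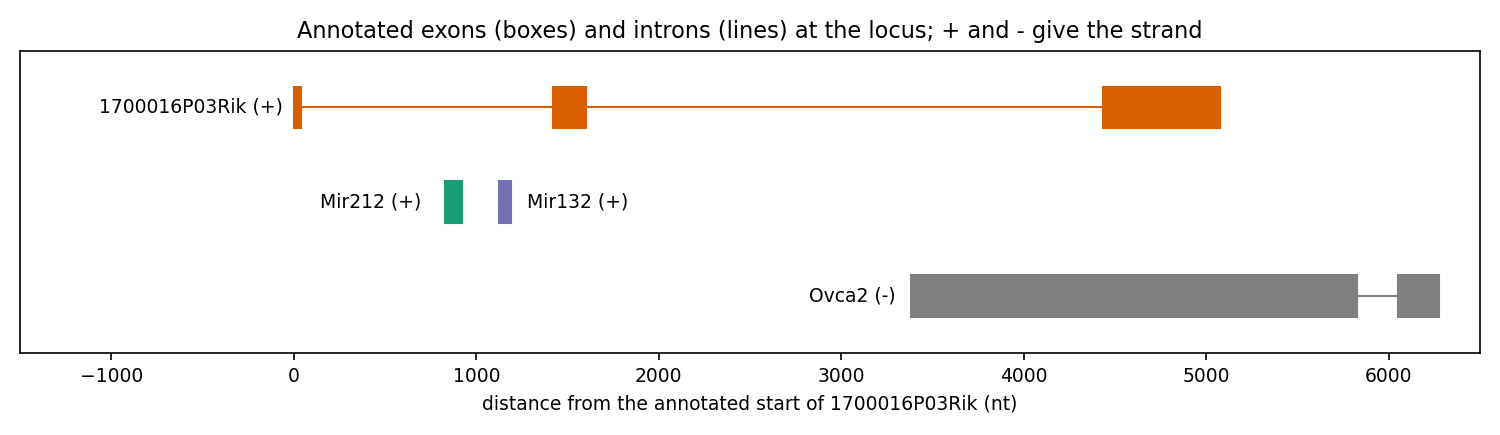
Exons (boxes) and introns (lines) of 1700016P03Rik, Mir212, Mir132 and the antisense gene Ovca2, by distance in nt from the annotated start of the host transcript. The hairpins start 828 and 1122 nt after the host start, within its first intron, and the third host exon lies under the Ovca2 exon.

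At 1 hr, the levels of all 3 genes were higher in each LTP library than in any control library. The host transcript stood at 6.33, 7.86 and 6.96 CPM in the control libraries 1 to 3 and at 36.1, 38.7 and 33.4 CPM in the LTP libraries. Mir212 stood at 1.11, 1.61 and 0.924 CPM in controls and at 5.17, 3.51 and 4.51 CPM after LTP. Mir132 stood at 0.129, 0.683 and 0.426 CPM in controls and at 2.11, 1.32 and 2.05 CPM after LTP. The second value of each control series is the library that was set aside, and it was the highest of the 3 controls for each gene without reaching the LTP libraries.

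The fitted log2 fold change at 1 hr was 2.45 (SE 0.11, 5.46-fold) for the host transcript. It was 2.12 (SE 0.23, 4.36-fold) for Mir212 and 2.69 (SE 0.42, 6.47-fold) for Mir132. Non-overlapping, higher LTP libraries were found for 6.69% of the 17736 genes tested with all 3 controls and for 10.5% with the 2 fitted controls, and 0.778% passed the call used throughout in this direction, an adjusted p below 0.1 and a fold change above 1.2. Since this comparison chose the locus, nothing is read from these shares. The Mir132 control level rested on few reads, with 5 counts in control 1 (95% Poisson interval 1.62 to 11.7) and 18 in control 3 (10.7 to 28.4). With all 6 libraries the log2 fold change was 2.36 for the host transcript, 1.85 for Mir212 and 2.11 for Mir132. Leaving out each fitted library in turn gave, for Mir132, 2.10 (without control 1) to 3.8 (without control 3).

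**Figure D2:**
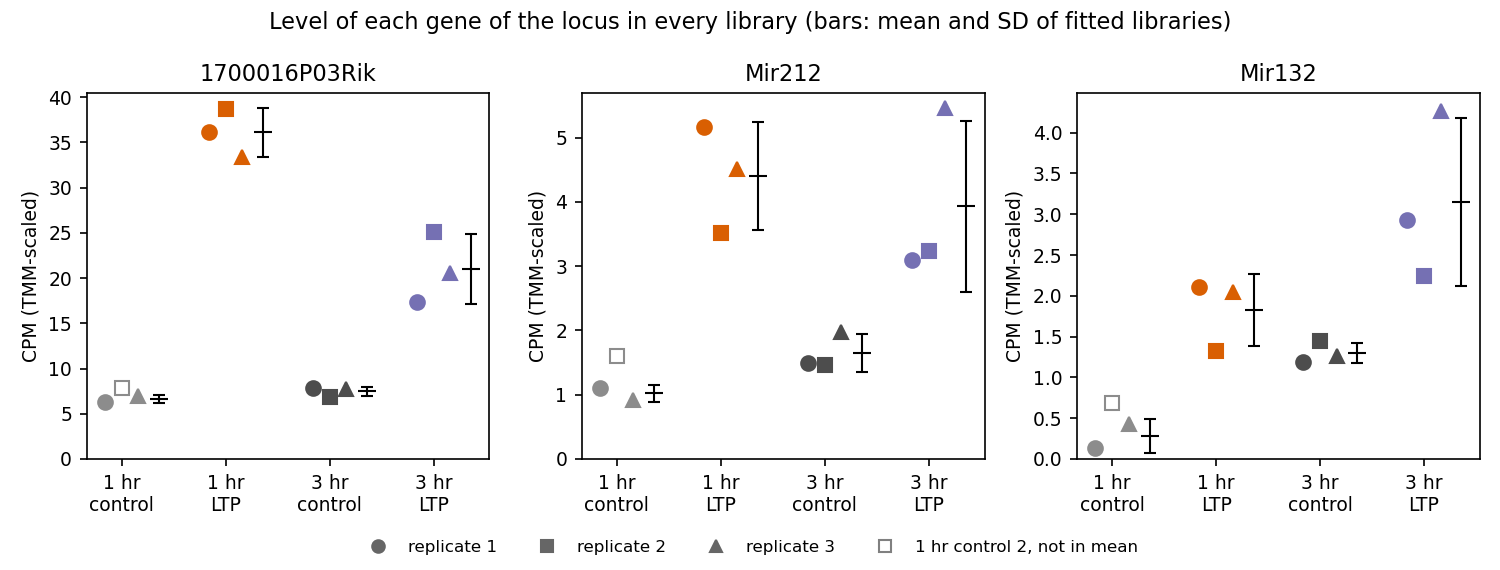
CPM, scaled by the trimmed mean of M-values (TMM), of 1700016P03Rik, Mir212 and Mir132 in each of the 12 libraries by group. Marker shapes give the replicate number within a time point, the open square is 1 hr control 2, and bars give the mean and SD of the fitted libraries. LTP libraries lie above the controls of their time point in all 3 panels, and Mir132 controls are higher at 3 hr than at 1 hr.

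At 3 hr, all 3 genes rose after LTP. This comparison did not choose the locus, though the members were chosen with earlier results of these data known. The hairpins lie within the host transcript, so the 3 genes are not 3 separate supports. The host transcript stood at 7.83, 6.9 and 7.73 CPM in controls and at 17.4, 25.1 and 20.6 CPM after LTP. It rose 2.84-fold (95% interval 2.30 to 3.50; log2 fold change 1.5, SE 0.13; edgeR quasi-likelihood test, adjusted p = 0.00123). Across the alternatives and left-out libraries its adjusted p remained below the threshold, at most 0.0147.

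Mir212 stood at 1.49, 1.46 and 1.98 CPM in the 3 hr controls and at 3.09, 3.23 and 5.46 CPM after LTP. It rose 2.38-fold (95% interval 1.62 to 3.50; log2 fold change 1.25, SE 0.25; edgeR adjusted p = 0.0305). Mir132 stood at 1.19, 1.44 and 1.26 CPM in controls and at 2.93, 2.24 and 4.27 CPM after LTP. It rose 2.43-fold (95% interval 1.67 to 3.54; log2 fold change 1.28, SE 0.24; edgeR adjusted p = 0.0262). The groups of all 3 genes did not overlap, as for 12.9% of the 17508 genes tested, and 5.07% of genes were called higher at 3 hr.

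Some calls of the hairpins at 3 hr were lost when a control was left out. Mir212 was not called without control 1 (log2 fold change 1.19, edgeR adjusted p = 0.136) or control 2 (1.17, edgeR adjusted p = 0.154) but was called without control 3 (1.42, edgeR adjusted p = 0.0824). Mir132 was not called without control 1 (1.23, edgeR adjusted p = 0.12), control 2 (1.36, edgeR adjusted p = 0.106) or control 3 (1.27, edgeR adjusted p = 0.107).

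Within animals, the log2 ratio of LTP to control was above 0 for each gene in 3 of 3 animals at both times. For the host transcript it ranged from 2.24 to 2.49 at 1 hr and from 1.14 to 1.85 at 3 hr. For Mir212 it ranged from 1.07 to 2.17 and from 1.00 to 1.42, and for Mir132 from 0.858 to 3.27 and from 0.607 to 1.68. The lowest hairpin ratios at 1 hr were those of animal 2, whose control is the library that was set aside.

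The fitted LTP effects were smaller at 3 hr than at 1 hr. The difference between the times, on the log2 scale, was -0.94 (SE 0.18) for the host transcript, -0.86 (SE 0.37) for Mir212 and -1.40 (SE 0.52) for Mir132. These values contain the 1 hr comparison and carry no test. With all 12 libraries the difference was -0.86 for the host transcript, -0.60 for Mir212 and -0.82 for Mir132.

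The levels behind these differences moved in different ways. In LTP slices, the host transcript was lower at 3 hr than at 1 hr in all libraries, with a log2 difference of -0.80 (SE 0.11), while 21.3% of the 18584 genes tested were lower without overlap. Mir212 overlapped between the times, with a log2 difference of -0.19 (SE 0.22) that ranged from -0.49 to -0.03 with 1 library left out. Mir132 was higher at 3 hr in all LTP libraries, with a log2 difference of 0.76 (SE 0.27), where 23.6% of genes were higher without overlap. Without 3 hr LTP replicate 3 the Mir132 difference was 0.48. Over 115 other annotated miRNA genes the median log2 difference in LTP slices was 0.66, with 41 called higher (35.7%) and 6 lower (5.22%), against 18.6% and 17.3% of all genes. The 1 hr LTP libraries had part in choosing the locus, so these too are values without a test. Cell type markers also moved in LTP slices over this interval. Called lower were 3 of 4 microglia, 2 of 3 mural cell, 1 of 4 neuron and 1 of 4 astrocyte markers. Called higher were 2 of 4 oligodendrocyte, 1 of 3 endothelial, 1 of 2 CA1 and 1 of 2 CA3 markers. Their part in the values of the locus was not tested.

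In control slices, Mir132 was higher at 3 hr than at 1 hr in all libraries, the one that was set aside included. The difference was 4.46-fold (log2 difference 2.16, SE 0.43). The host transcript differed 1.10-fold (log2 difference 0.14, SE 0.14) and its groups overlapped. Mir212 differed 1.59-fold (log2 difference 0.67, SE 0.30). Its fitted libraries did not overlap, but the one that was set aside (1.61 CPM) lay above 3 hr controls 1 and 2 (1.49 and 1.46 CPM). The 1 hr controls entered the comparison that chose the locus, so these are values without a test. A low Mir132 level in the 1 hr controls favoured that choice and also raises the Mir132 difference given here.

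Differences were frequent over this interval, with 31.5% of genes higher without overlap, 16.1% called higher and 16.8% called lower. With all 12 libraries the log2 difference was 0.08 for the host transcript, 0.43 for Mir212 and 1.60 for Mir132. The Mir132 difference was 1.61 without 1 hr control 1 and 3.31 without 1 hr control 3. Whether the time points used the same animals is not given in the sources used here. The fits treat all libraries as separate, and time after treatment and any difference between animals cannot be told apart.

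Other miRNA genes and cell type markers moved in the same comparison. Of 115 other annotated miRNA genes tested, 30 were called higher and 4 lower at 3 hr, or 26.1% and 3.48%, with a median log2 difference of 0.54 against -0.02 over all genes. Of the 4 microglia markers, 3 were called lower, and their summed level was 139 to 152 CPM in 1 hr controls and 96.7 to 109 CPM in 3 hr controls. The summed level of 4 oligodendrocyte markers was 4230 to 5150 CPM at 1 hr and 5790 to 7110 CPM at 3 hr, with 2 of them called higher. Of the 4 neuron markers, 2 were called lower, with a summed level of 4820 to 5340 CPM at 1 hr and 4130 to 4260 CPM at 3 hr. The CA1 and CA3 markers each had 1 of 2 called higher, and the astrocyte markers had 1 of 4 lower. Endothelial and mural cell markers each had 2 of 3 called lower. In all, 14 of 29 markers were called between the control groups, and their part in the Mir132 difference was not tested.

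The same markers were compared between control and LTP slices. At 3 hr, where 5.07% of all genes were called higher and 1.53% lower, 0 of 29 markers were called by edgeR, with 1 higher and 2 lower at an unadjusted p below 0.05, while DESeq2 called 1 lower and limma-voom 0. At 1 hr, where 0.778% of all genes were called higher and 0.0113% lower, 1 of 29 was called, a mural cell marker that was lower, with 3 higher and 5 lower at an unadjusted p below 0.05. The summed level of the oligodendrocyte markers was 4230 to 5150 CPM in controls and 4980 to 6020 CPM after LTP at 1 hr, with a median log2 fold change of 0.22. The summed endothelial level was 75.5 to 82.5 CPM in controls and 64.6 to 66.4 CPM after LTP. The part of these cells in the 1 hr values was not tested.

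The split of the counts among the 3 genes is given for each group. It rests in part on the 1 hr values that chose the locus, and over the same interval the median log2 difference of other miRNA genes was 0.54 in controls and 0.66 in LTP slices. Mir132 took 1.71% to 6.72% of the summed counts of the locus in the 1 hr controls and 3.03% to 5.12% in the 1 hr LTP libraries. At 3 hr it took 11.3% to 14.7% in controls and 7.33% to 14.1% after LTP. Each 3 hr library was thus above each 1 hr library, and how often such a share separates the times was not computed. By level, 31.5% of all genes in controls and 23.6% in LTP slices were higher at 3 hr without overlap of the fitted libraries. The share of Mir212 overlapped between the times, from 8.05% to 15.9% at 1 hr and from 10.6% to 18.1% at 3 hr.

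Mir132 was also set against Mir212 alone. This uses the same Mir132 counts as the share above, the 1 hr values that chose the locus included, and is no separate support. Mir132 made up 10.4%, 29.7% and 31.6% of the counts over both hairpins in the 1 hr controls and 29.0%, 27.3% and 31.2% in the 1 hr LTP libraries. In the 3 hr controls it made up 44.4%, 49.6% and 38.9%, and in the 3 hr LTP libraries 48.7%, 41.0% and 43.9%. Within a time point, control and LTP libraries overlapped. The value of 10.4% rests on 5 of 48 counts (95% exact binomial interval 3.47% to 22.7%), which covers counting error only.

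**Figure D3:**
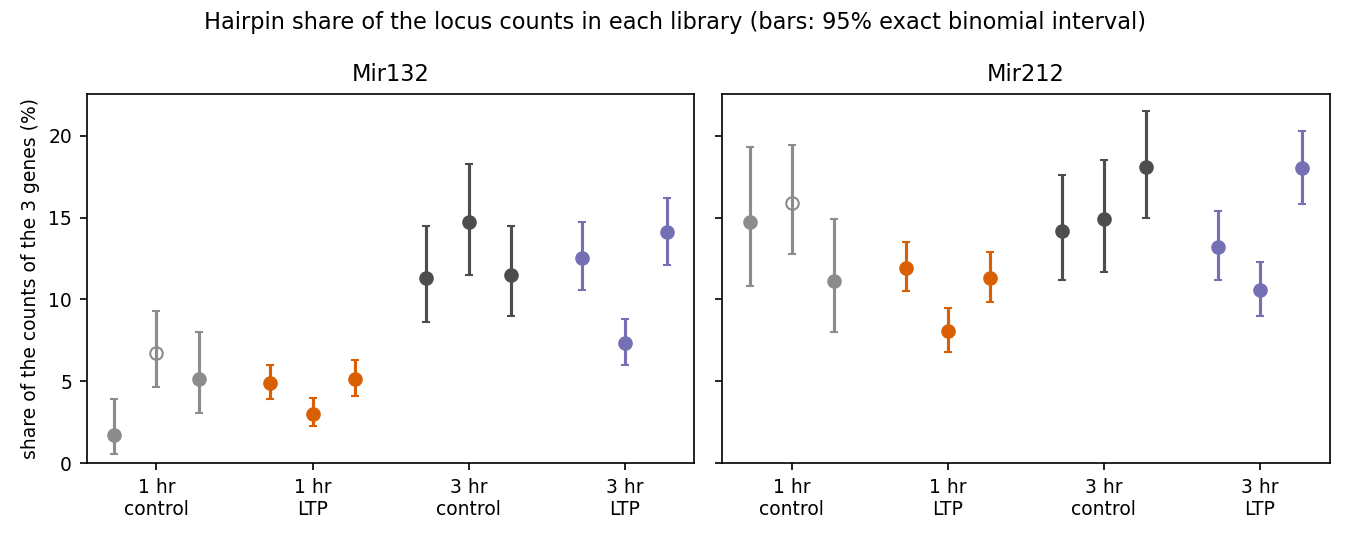
Share of the summed counts of the 3 genes, in percent, taken by Mir132 and by Mir212 in each library, grouped by condition, with 95% exact binomial intervals; the open circle is 1 hr control 2. Mir132 lies at 1.71% to 6.72% in the 1 hr libraries and at 7.33% to 14.7% in the 3 hr libraries, whereas the Mir212 ranges overlap.

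Per kilobase of annotated length, the order of the 3 genes changed between groups. In the 3 hr controls the host transcript reached at most 9.07 CPM per kb, whereas Mir212 and Mir132 each reached 21.8. In the 1 hr LTP libraries the host transcript stood at 38.7 to 44.9 CPM per kb, overlapping Mir212 at 38.5 to 56.9, and Mir132 reached at most 32.0. The hairpins are shorter than a sequenced fragment, so that their level per length depends on how reads that extend beyond them were counted.

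The genes next to the locus were tested in the same fits. Of 8 neighbours, 4 on each side, 8 were tested at 1 hr and 6 at 3 hr, and edgeR, DESeq2 and limma-voom called 0 at either time, where edgeR called 0.778% of all genes higher at 1 hr and 5.07% at 3 hr. The lowest edgeR adjusted p was 0.795 at 1 hr and 0.146 at 3 hr, with 0 and 1 neighbours at an unadjusted p below 0.05. Ovca2, which shares the third host exon on the other strand, had log2 fold changes of -0.06 (SE 0.12) at 1 hr and -0.01 (SE 0.10) at 3 hr. Hic1, a transcriptional repressor on the opposite strand whose annotated start lies 3041 nt before the host start, had -0.10 (SE 0.38) at 1 hr and 0.63 (SE 0.21; edgeR adjusted p = 0.146) at 3 hr. Smg6, a factor of nonsense-mediated decay, had 0.04 (SE 0.10) and 0.14 (SE 0.07). Between the control groups, 3 of the 8 neighbours were called, with Hic1 and Rtn4rl1, a Nogo receptor relative, higher at 3 hr and the pseudogene Rps12-ps19 lower, against 16.1% of all genes called higher and 16.8% lower.

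**Figure D4:**
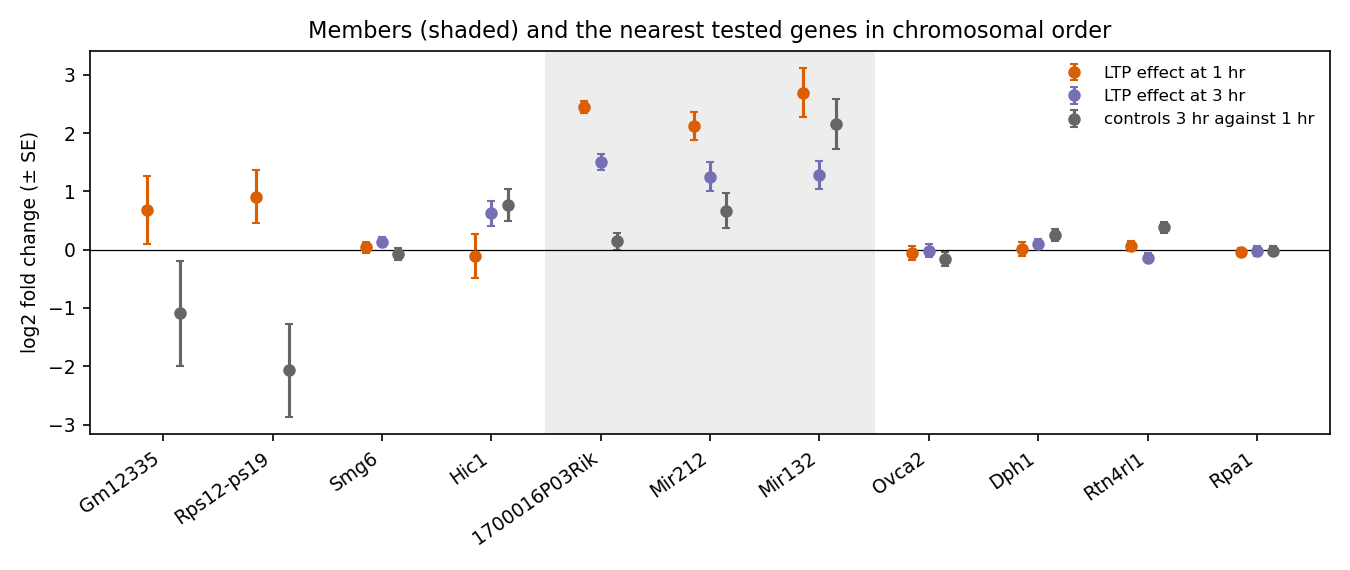
Log2 fold change with SE for the 3 genes of the locus (shaded) and 8 neighbouring genes in chromosomal order, for LTP at 1 hr, LTP at 3 hr and controls at 3 hr against 1 hr. The pseudogenes Gm12335 and Rps12-ps19 were too low to be tested at 3 hr and have no value there; the shaded LTP effects lie at 1.25 to 2.69, above those of the neighbours.

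The other miRNA genes were tested in the same fits. Of 1834 annotated miRNA genes outside the Meg3 to Mirg cluster, 65 passed the filter at 1 hr and 80 at 3 hr. At 1 hr edgeR called 1 of them, or 1.54% against 0.778% of all genes, namely Mir335 (log2 fold change 1.82, SE 0.39). At 3 hr it called 2, or 2.5% against 5.07% of all genes, namely Mir491 (1.22, SE 0.29) and the predicted gene Gm23134 (0.85, SE 0.25). Mir335 and Mir491, with a mean below 0.5 CPM, were named after their values were seen. The median log2 fold change was 0.18 at 1 hr and 0.32 at 3 hr over these genes. Among 9 tested host transcripts of other miRNAs, edgeR and limma-voom called 0 and DESeq2 called 1 at 1 hr, with 6 higher at an unadjusted p below 0.05. At 3 hr, edgeR and limma-voom called 3 higher, or 33.3% against 5.07% of all genes, and DESeq2 called 5. The 3 that rose by edgeR were Mirg (0.83, SE 0.08), Mir99ahg (0.58, SE 0.07) and Mir124a-1hg (0.42, SE 0.11).

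Genes known to act on the locus were also tested. Of 15 regulators, among them CREB, its coactivators and BDNF signalling, edgeR, DESeq2 and limma-voom called 0 at 1 hr, where edgeR called 0.778% of all genes higher, with 2 higher and 1 lower at an unadjusted p below 0.05. At 3 hr, 2 rose, or 13.3% against 5.07% of all genes. Crem, a CREB family member with activating and repressing forms, had a log2 fold change of 0.57 (SE 0.10; edgeR adjusted p = 0.0216), and Crebbp, a histone acetyltransferase that binds CREB, had 0.48 (SE 0.13; edgeR adjusted p = 0.0771). The count was 0 without control 2 and 1 without control 1, control 3, LTP 1 or LTP 3.

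Of 17 genes whose proteins make or use miRNAs, 5 rose at 3 hr, or 29.4% against 5.07% of all genes. At 1 hr edgeR, DESeq2 and limma-voom called 0 of them, with 4 higher at an unadjusted p below 0.05, and the difference between the times was called for 0 of 17 (lowest edgeR adjusted p = 0.657). The genes that rose at 3 hr, with their log2 fold changes, were Ago2 (0.56, SE 0.13) and Ago3 (0.42, SE 0.06), which bind mature miRNAs, Tnrc6b (0.40, SE 0.10) and Tnrc6c (0.36, SE 0.09), which silence bound mRNAs, and Dicer1 (0.32, SE 0.07), which cuts precursors. The count was 1 without control 1, control 2 or LTP 1 and 2 without control 3. Over all alternatives and left-out libraries it ranged from 1 to 7, and 0 to 1 genes were called lower. The median of the list was 0.11 at 3 hr.

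Reported targets of miR-132 and miR-212 were tested in the same fits. Of 20 targets, edgeR called 2 higher and 0 lower at 1 hr, where 0.778% of all genes were called higher and 0.0113% lower. At 3 hr it called 3 higher and 0 lower, where 5.07% of all genes were called higher and 1.53% lower. With so few genes called lower, a count of 0 among 20 does not set the targets apart. At both times DESeq2 and limma-voom also called 0 lower, and 0 were lower at an unadjusted p below 0.05. The count of higher targets was 4 at 1 hr without LTP 3 and 5 at 3 hr without LTP 2. The median log2 fold change was 0.07 at 1 hr and 0.03 at 3 hr.

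The called targets were Btg2, an antiproliferative early response gene, Nr4a2, an orphan nuclear receptor, and Ep300, a histone acetyltransferase related to Crebbp. On the log2 scale, Btg2 changed by 2.66 at 1 hr (SE 0.09) and by 1.35 at 3 hr (SE 0.06). Nr4a2 changed by 1.02 at 1 hr (SE 0.08) and by 0.96 at 3 hr (SE 0.11). Ep300 changed by 0.62 at 3 hr (SE 0.09). Arhgap32, a GTPase-activating protein of dendrites, was not called at either time, with log2 fold changes of 0.09 (1 hr, SE 0.07) and 0.26 (3 hr, SE 0.09).

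Matches to the shared seed are printed for Nr4a2, Ep300 and Arhgap32, since they are the stretch that either miRNA could pair with. Each line gives the mRNA strand 5′ to 3′ around a match in the longest annotated 3′ UTR, with the match in capitals.
Nr4a2: atgcagcagcttttGACTGTTtccagagt
Ep300: tggatcactgtataGACTGTTAaatttga
Arhgap32: tctgctggacagtgGACTGTTctattttt
The letters searched were GACTGTT, complementary to the seed, and GACTGTTA, which adds the base opposite the first base of the miRNA, on the transcript strand only. Of the 20 targets, 18 held the shorter match and 8 the longer, against 13.3% and 2.92% of all tested genes with an annotated 3′ UTR. The list was drawn from reported targets, for which such matches are a common criterion, and a match is a description and not a site of action.

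All tested genes with the shorter match were counted in the same way. At 1 hr, 0.664% of the 1958 genes with a match were called higher and 0% lower, against 0.804% and 0.0136% of all 14679 tested genes with a 3′ UTR. At 3 hr, 6.17% of the 1961 genes with a match were called higher and 1.22% lower, against 4.59% and 1.76% of all 14706 tested genes with a 3′ UTR. Their 3′ UTRs were longer, with a median of 2578 nt against 1353 nt, and the part of this length in the counts was not tested.

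**Figure D5:**
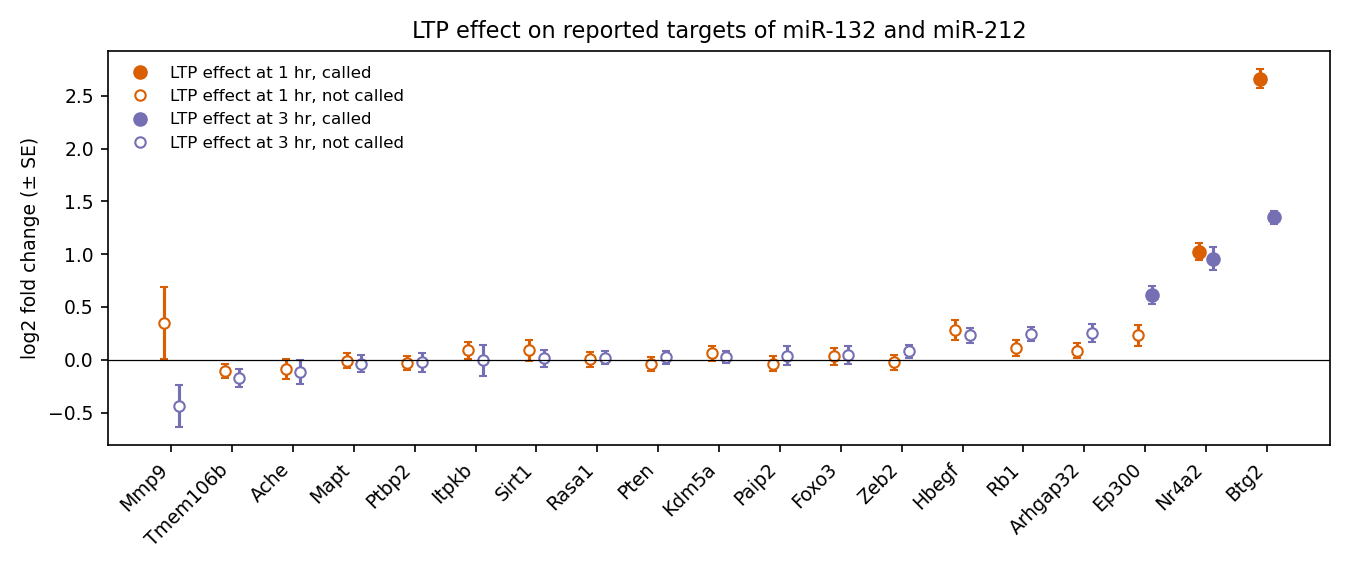
Log2 fold change with SE of 19 of the 20 reported targets of miR-132 and miR-212 after LTP at 1 hr and 3 hr, ordered by the 3 hr value, with called genes filled. Btg2, Nr4a2 and Ep300 hold the filled points, all above 0, and no target is called lower at either time; the target not plotted is not reported here and was not called at either time.

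Over the 11 fitted libraries, the genes most like the summed locus among 14189 compared were Ppp1r15a, a stress response phosphatase subunit (Pearson r = 0.995), Ptgs2, an inducible prostaglandin synthase (0.980), the early response factor Egr2 (0.977), Arl4d, a small GTPase (0.977), and Gm17024 (0.970). These values describe libraries that fall into 4 groups and share the LTP treatment. Within the locus, the correlation was 0.902 between the host transcript and Mir212, 0.624 between the host transcript and Mir132, and 0.812 between the hairpins.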

How the data were processed

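RNA-seq was made from total RNA depleted of ribosomal RNA (stranded kit, paired ends). Per the study's methods, reads were aligned with STAR to mm10, and the authors deposited raw counts per gene for each library. The strand setting, the handling of overlaps and the annotation release are not given in the sources used here. Of 41091 identifiers, 40217 matched GENCODE M21, which gave symbols and positions.

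Counts were fitted with edgeR 4.0.16 in R 4.3.3 (filterByExpr, TMM, quasi-likelihood test, Benjamini-Hochberg adjustment over all genes tested). Each time point was fitted separately, the 1 hr fit without control 2 as in the study, and comparisons between times in a model of 4 groups and 11 libraries. A gene was called at an adjusted p below 0.1 and a fold change above 1.2, without the fold minimum for the difference between LTP effects. CPM were TMM-scaled, with 0.1 CPM added before logarithms. The fits were tested on simulated data with the same spread set for every gene, which does not show the precision of the fits for Mir132.

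The members and lists were chosen with earlier results of these data known. Named genes were the 3 members, 4 neighbours a side, called members of the lists, called miRNA genes averaging 0.5 CPM or more, and the 5 genes most correlated with the summed locus; Arhgap32 was added as an example after its values were seen. Some items are not reported here. The 3 genes are given without a test wherever 1 hr libraries enter, which for the controls over time departs from the planned test. Same-numbered LTP and control slices came from the same animal, though their deviations from group means correlated only between -0.145 and 0.233. Replicates of a group differed beyond sampling noise (chi-square per degree of freedom 9.49 to 85.6). A total of 3 counts, the floor for detection, is 0.059 to 0.0808 CPM. Alternatives were DESeq2 1.42.0, limma 3.58.1 (voom), other scalings and filters, summed members, a replicate block and leaving out libraries.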

Additional observations from a re-analysis of the deposited data

Results flagged for a closer look

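Library 1 hr control replicate 2, which the 1 hr comparison did not use, held each gene of the locus above both fitted 1 hr controls. Its level was 7.86 CPM for 1700016P03Rik, 1.61 CPM for Mir212 and 0.683 CPM for Mir132. Each value lay below the 3 LTP libraries of that time point.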

How the results depend on the processing

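No alternative reversed the direction of an LTP effect or of a difference between times for the 3 genes. At 1 hr, leaving out 1 fitted library gave 2.103 to 3.801 for Mir132. With all 6 libraries Mir132 had 2.107, and with a replicate block as well 2.156. With all 6 but 1, an alternative chosen after seeing the data, Mir132 had 1.705 (without control 1), 2.102 (control 3), 1.987 (LTP 1) and 2.012 (LTP 3), Mir212 had 1.781 (control 1), 1.678 (control 3) and 1.712 (LTP 1), and the host transcript had 2.279 (control 1). Mir132 had no value at 1 hr under a minimum of 10 counts in every library.

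At 3 hr, leaving out 1 library gave 0.9394 to 1.422 for Mir212 and 0.9981 to 1.483 for Mir132, with the losses of calls given above. The replicate block, which pairs slices by animal, gave 1.491, 1.244 and 1.259 for the host transcript, Mir212 and Mir132, and changed no call of theirs. The difference between the LTP effects ranged from -1.105 to -0.8351 for the host transcript, -1.186 to -0.7173 for Mir212 and -2.542 to -0.8444 for Mir132 with 1 library left out, and with all 12 it was -0.6003 for Mir212 and -0.8237 for Mir132. In controls over time, where the 3 genes carry no test, Mir212 had 0.6883 with DESeq2 and 0.7113 with total counts. The cause of these shifts was not tested. Precision for Mir132 at 1 hr is limited by control counts of 5 to 33.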
